A study of Homo sapiens with 12 samples.

Results

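The nuclear genes of oxidative phosphorylation (OXPHOS) were taken as all genes in the tables whose symbol starts as a subunit of complex I (*NDUFA*, *NDUFB*, *NDUFC*, *NDUFS* or *NDUFV*), complex II (*SDHA* to *SDHD*), complex III (*UQCR*), complex IV (*COX4* to *COX8* with a subunit letter) or complex V (*ATP5*). This gave 79 of 10976 genes, of which 38 were assigned to complex I, 4 to complex II, 8 to complex III, 11 to complex IV and 18 to complex V. *NDUFA4*, once listed with complex I and now known as a complex IV subunit, was counted with complex IV. *NDUFA6-DT* and *NDUFV1-DT* are divergent transcripts that carry the name of a subunit gene and encode no subunit. The carriers and subunits whose symbols lie outside this pattern, such as *CYCS* and *COX4I1*, were kept as a comparison list.

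The samples were cerebral organoids (COs), 3-dimensional neural cultures grown from human embryonic stem cells. WT COs came from the established H1 line, and KO COs came from KO#2 and KO#10, each a clone of H1 in which *c-JUN* was targeted with CRISPR-Cas9. COs of every line went through the same protocol and were collected on day 12 and on day 24. The embryoid body medium held basic fibroblast growth factor and at first a ROCK inhibitor. By the schedule of the study, COs of day 12 were still in neural induction medium. Those of day 24 had since been embedded in Matrigel and moved to differentiation medium, with shaking from a day that is not given. Time and this change of culture cannot be told apart in the comparisons of day 24 with day 12. Each line and day had 2 libraries, which gave 2 WT and 4 KO libraries per day and 12 in all. Each library was made from several pooled COs. The spread behind a p-value thus holds differences between pools and, in the main fits, also differences between the 2 KO clones. The WT libraries all came from the same line and the KO libraries from 2 clones. A p-value here therefore does not measure the spread between independent lines of a genotype.

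Oxidative phosphorylation is carried out in the inner mitochondrial membrane. Complexes I and II pass electrons from NADH and succinate to ubiquinone, complex III passes them to cytochrome c, and complex IV passes them to oxygen, while complexes I, III and IV pump protons that drive ATP synthesis by complex V. A few core subunits hold the catalytic centres, and a larger number of small accessory or supernumerary subunits surround them. Neural stem cells rely largely on glycolysis, and oxidative phosphorylation is known to gain weight as neurons form.

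The values were whole-number normalised scores on a scale whose depth is not known, so levels were compared between libraries and never between genes. All libraries had a median of 17 and a highest value of 5585, and totals ranged from 473637 to 483149. Each library held 269 to 271 distinct values. The libraries thus share nearly the same scale, and a change is a shift along it that need not match a change in RNA amount. The shared median also tends to keep the median change over all genes small, so that median is no independent check. *JUN*, the targeted gene, had values of 4 and 8 in the WT and 13 to 19 in the KO libraries on day 12, and of 13 and 15 in the WT and 29 to 39 in the KO libraries on day 24. Its transcript was thus not lower in the libraries labelled KO, and every difference below is between libraries labelled KO and libraries labelled WT. The study itself reported loss of c-JUN protein in the KO lines by western blot. By RT-qPCR it reported no *c-JUN* expression in KO COs, unlike the scores here. The kind of CRISPR lesion is not given in the sources used here, so the RNA scores do not check the loss of the protein. The labels call these neural COs. The summed value of 6 neural progenitor markers was 474 and 617 in the WT and 699 to 901 in the KO libraries on day 12. On day 24 it was 503 and 499 in the WT and 896 to 1009 in the KO libraries. Markers of other tissues also moved: the summed value of 6 hepatic and yolk sac genes was 1 to 20 in all day 12 libraries, 6571 and 6713 in the day 24 WT libraries and 33 to 1182 in the day 24 KO libraries. The highest of these KO values was in KO#10 replicate 1 of day 24, which stood apart from the other KO libraries and also had a summed mesenchyme value of 2493, against 91 to 140 in the other 3 and 1969 and 2262 in the WT libraries of that day. The summed value of 5 epithelial genes was 591 and 776 in the day 24 WT libraries and 39 to 240 in the day 24 KO libraries. The summed value of 5 pluripotency genes was 386 and 716 in the day 24 WT libraries and 28 to 49 in the day 24 KO libraries, and that of 6 neuron genes was 153 and 302 against 372 to 1906.

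Promoter windows of the genes were read to show what they share apart from their function. Nuclear respiratory factor 1 (NRF1), the ETS factor GABPA and YY1 are textbook regulators of respiratory chain genes, and c-JUN acts through AP-1 and CRE sites. Of the 79 genes, 66 had a window in the RefSeq table of the GRCh38.p14 build, and the 250 bases before the start were searched on both strands. The NRF1 core GCATGCGC was in 12 of the 66 windows (18.2%) against 2.81% of all 27305 promoters in the table. The ETS core CCGGAAG was in 17 (25.8%) against 8.82%, and the YY1 core AAGATGGC was in 2 (3.03%) against 1.37%. The AP-1 pattern TGANTCA, with any base at N, was in 3 (4.55%) against 6.6%, and the CRE TGACGTCA was in 4 (6.06%) against 1.77%. The stricter AP-1 form, with C or G at N, was not counted separately, and the match in *NDUFS6*, TGAATCA, is not of that form. At least 1 of the NRF1, ETS and YY1 motifs was in 25 windows (37.9%) against 12.2% of all promoters. The NRF1 core and its reverse complement can overlap, as they do in *ATP5F1C* and *SDHD*, and no other matches in the windows shown overlap. A match describes the letters only, and the 4 windows below were chosen to show the motifs in genes described later, with every match in capitals.
ATP5PF, chr21:25735055-25735304, minus strand, with an NRF1, a YY1 and an ETS match: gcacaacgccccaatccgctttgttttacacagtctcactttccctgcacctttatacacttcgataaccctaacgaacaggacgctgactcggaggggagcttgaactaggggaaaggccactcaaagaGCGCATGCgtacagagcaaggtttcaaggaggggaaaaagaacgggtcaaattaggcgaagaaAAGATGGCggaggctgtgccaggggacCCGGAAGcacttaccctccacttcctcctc
NDUFS6, chr5:1801157-1801406, plus strand, with an AP-1 and an NRF1 match: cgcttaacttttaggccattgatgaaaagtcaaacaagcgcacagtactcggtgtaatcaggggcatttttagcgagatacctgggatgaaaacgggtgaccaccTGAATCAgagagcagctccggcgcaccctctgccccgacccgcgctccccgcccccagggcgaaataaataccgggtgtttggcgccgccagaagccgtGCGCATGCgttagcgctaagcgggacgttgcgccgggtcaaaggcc
ATP5F1C, chr10:7787927-7788176, plus strand, with overlapping NRF1 matches: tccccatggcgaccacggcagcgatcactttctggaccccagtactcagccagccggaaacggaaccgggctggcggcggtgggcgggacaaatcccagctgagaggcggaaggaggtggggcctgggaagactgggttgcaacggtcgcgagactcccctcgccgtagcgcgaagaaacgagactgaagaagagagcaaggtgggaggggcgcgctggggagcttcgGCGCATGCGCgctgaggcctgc
SDHD, chr11:112086623-112086872, plus strand, with overlapping NRF1 matches and an ETS match: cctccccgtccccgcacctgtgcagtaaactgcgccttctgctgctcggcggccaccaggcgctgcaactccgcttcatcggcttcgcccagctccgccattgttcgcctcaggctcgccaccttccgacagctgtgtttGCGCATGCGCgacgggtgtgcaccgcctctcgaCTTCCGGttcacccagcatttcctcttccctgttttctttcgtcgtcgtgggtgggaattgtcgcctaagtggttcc

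The first question was how these genes changed between day 12 and day 24 in WT COs. Most of them were higher on day 24. Of 78 genes that passed the filter on low values, 44 rose and none fell at an adjusted *p* below 0.05 (limma with Benjamini-Hochberg adjustment), where 13.6% of all 9952 genes tested rose and 15.8% fell. With a change of at least 2-fold also required, 22 genes were called higher and 0 lower, where 7.17% of all genes were called higher and 7.88% lower. At an unadjusted *p* below 0.05, 54 genes were higher and 1, *NDUFV1-DT*, was lower, where 20.7% of all genes were higher and 21.5% lower. Both day 24 libraries lay above both day 12 libraries for 62 of the 78 genes and below for 2, where 32.1% of all genes lay above and 31.6% below. The median log2 change was 0.70 over the 78 genes and 0.02 over all genes, with changes given on the log2(value + 1) scale. With the replicate number as a block in the fit, *NDUFA13*, *ATP5F1A* and *NDUFV1-DT* fell at an adjusted *p* below 0.05.

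**Figure D1:**
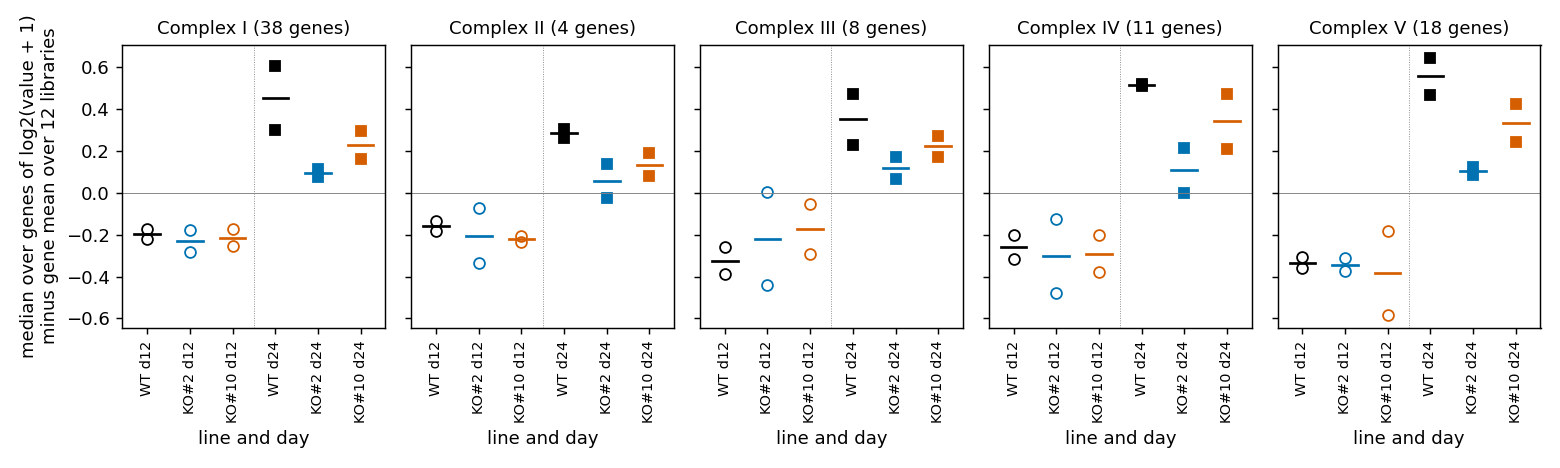
Median level of the genes of each complex in each library. The vertical axis is the median over the genes of log2(value + 1) after the mean of each gene over the 12 libraries was subtracted, circles are day 12 and squares day 24 libraries, and short lines are means of 2 libraries. In each of the 5 panels every day 24 library lies above every day 12 library, and the mean of the 2 WT libraries is the highest of day 24.

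The rise was found in all 5 complexes to different extents. In complex I, 12 of 37 genes tested were called higher with a median log2 change of 0.59. In complex II, the succinate dehydrogenase that also belongs to the citric acid cycle, 0 of 4 were called and 3 had an unadjusted *p* below 0.05, with a median of 0.40. In complex III, 2 of 8 were called with a median of 0.66. In complex IV, 2 of 11 were called, all 11 changes were positive and the median was 0.71. In complex V, 6 of 18 were called with a median of 0.91.

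The core subunits of complex I had small changes. These 7 subunits carry the flavin, the iron-sulphur clusters and the ubiquinone site, and 0 of them were called higher, with 2 at an unadjusted *p* below 0.05 and a median log2 change of 0.16. *NDUFV1*, which binds NADH, had values of 48 and 46 in the WT libraries of day 12 and 50 and 46 on day 24 (log2 change 0.03). *NDUFS1*, the largest iron-sulphur subunit, had 33 and 31 on day 12 and 38 and 34 on day 24. The changes of *NDUFS3*, *NDUFS7* and *NDUFS8* ranged from 0.14 to 0.44, with no adjusted *p* below 0.05. *NDUFV2*, a further iron-sulphur subunit, rose: it had 52 and 67 on day 12 and 126 and 96 on day 24 (log2 change 0.89, SE 0.23, adjusted *p* = 0.013).

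The other 29 subunits of complex I had a median change of 0.86, and all 12 calls of the complex were among them. *NDUFC2*, an accessory subunit of the membrane arm, had 19 and 22 on day 12 and 84 and 92 on day 24 in WT COs (log2 change 2.05, SE 0.24, adjusted *p* = 0.00033). The values of each day lay close together and far from those of the other day. *NDUFA7* had 11 and 14 on day 12 and 46 and 48 on day 24 (log2 change 1.84, adjusted *p* = 0.0036). *NDUFC1* had 4 and 7 against 22 and 18 (log2 change 1.73, adjusted *p* = 0.0018). In every day 12 library it was below 10, so it passed the filter only through day 24 libraries, and its change is no measure of a fold. *NDUFS4*, a subunit needed for stable assembly of the NADH-binding module, had 154 and 122 against 604 and 318 (log2 change 1.67, adjusted *p* = 0.021), so that the day 24 libraries differed widely although both were above day 12.

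*NDUFS6*, a zinc-binding subunit of the same module, had the highest change of complex I, but its day 12 value was listed at 0 in WT replicate 1 and at 9 in WT replicate 2, against 20 and 18 on day 24. Its fitted log2 change of 2.66 (SE 0.84, adjusted *p* = 0.033) depends on that 0 and is no measure of a fold. The remaining called subunits were *NDUFA1*, *NDUFA3*, *NDUFA8*, *NDUFB1*, *NDUFB4*, *NDUFB9* and *NDUFS5*, with log2 changes of 1.00 to 1.75. The lowest changes were those of *NDUFA13*, also known as GRIM-19, at -0.42 (212 and 146 against 149 and 116, adjusted *p* = 0.12) and of *NDUFV1-DT* at -0.95 (43 and 30 against 13 and 25, adjusted *p* = 0.068). *NDUFV1-DT* is transcribed away from *NDUFV1* at chr11:67602880-67606706 on the minus strand, and the libraries marked strand, but whether the counting used it is not given in the sources used here.

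In complexes II to IV the picture was similar. *SDHB*, the iron-sulphur subunit of complex II, had 29 and 24 on day 12 and 46 and 44 on day 24 (log2 change 0.75, adjusted *p* = 0.0091), whereas *SDHA*, its flavoprotein, had 35 and 47 against 36 and 40 (log2 change -0.09). *SDHC* and *SDHD*, the membrane anchors, had changes of 0.32 and 0.47 with an adjusted *p* of 0.088 and 0.059. In complex III, *UQCRB*, a small subunit close to the ubiquinone-binding site, had 34 and 31 on day 12 and 105 and 128 on day 24 (log2 change 1.80, SE 0.25, adjusted *p* = 0.00074). *UQCRQ*, another small subunit, was the second call with a change of 1.16. The core proteins *UQCRC1* and *UQCRC2* and the Rieske protein *UQCRFS1* had changes of -0.10, 0.50 and 0.64, and none had an adjusted *p* below 0.05.

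In complex IV, *COX7A2*, a small subunit with a muscle counterpart elsewhere in the genome, had 84 and 71 on day 12 and 450 and 262 on day 24 (log2 change 2.14, SE 0.21, adjusted *p* = 0.00019). *NDUFA4* had 57 and 48 against 237 and 126 (log2 change 1.71, adjusted *p* = 0.0015). *COX7A2L*, a relative of *COX7A2* that links complexes III and IV into supercomplexes, had 44 and 34 against 69 and 66 (log2 change 0.79, adjusted *p* = 0.0094). *COX5A*, *COX6B1*, *COX6C*, *COX7C* and *COX8A* also rose, by log2 changes of 0.62 to 0.81 that did not reach 2-fold. *COX5B*, *COX6A1* and *COX7B* had changes of 0.44, 0.36 and 0.69 with an adjusted *p* of 0.12, 0.12 and 0.087.

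Complex V held both called genes and genes with changes near 0. The subunits alpha and beta, which form the catalytic hexamer, are encoded by *ATP5F1A* and *ATP5F1B*. *ATP5F1A* had 424 and 506 on day 12 and 368 and 354 on day 24 (log2 change -0.36, adjusted *p* = 0.13), and *ATP5F1B* had 212 and 302 against 242 and 250 (log2 change -0.04). In the central stalk, *ATP5F1C*, which encodes the rotating gamma subunit, had 83 and 73 against 262 and 171 (log2 change 1.43, adjusted *p* = 0.0011), and *ATP5F1E*, which encodes epsilon, had 10 and 6 against 37 and 24 (log2 change 1.81, adjusted *p* = 0.0018). *ATP5F1D*, for delta, had 37 and 47 against 47 and 52 (log2 change 0.24).

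The 13 complex V genes outside these 5, which encode the peripheral stalk, the membrane part and the inhibitor, had a median change of 0.93. *ATP5PF*, which encodes coupling factor 6 of the peripheral stalk, had 15 and 15 on day 12 and 86 and 80 on day 24 (log2 change 2.39, SE 0.28, adjusted *p* = 0.00031). *ATP5MG* and *ATP5MK*, small subunits of the membrane part, were called with changes of 1.51 and 1.08. *ATP5IF1*, the inhibitor that blocks ATP hydrolysis by the enzyme, had 7 and 10 against 48 and 53 (log2 change 2.46, SE 0.51, adjusted *p* = 0.0054). The 3 genes that encode the same subunit c of the rotor ring had the following values: *ATP5MC1* had 26 and 32 against 55 and 57 (log2 change 0.93, adjusted *p* = 0.0033), *ATP5MC3* had 77 and 83 against 162 and 138 (0.90, adjusted *p* = 0.049), and *ATP5MC2* had 264 and 425 against 394 and 425 (0.29, adjusted *p* = 0.35). The differences between these 3 changes were not tested. *ATP5PD* had the largest fitted change of the complex (2.64, adjusted *p* = 0.086), but its values of 668 and 1204 on day 12 and 5585 in both day 24 libraries sit on levels that many genes share at the top of the scale, so that its changes are steps between such levels.

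**Figure D2:**
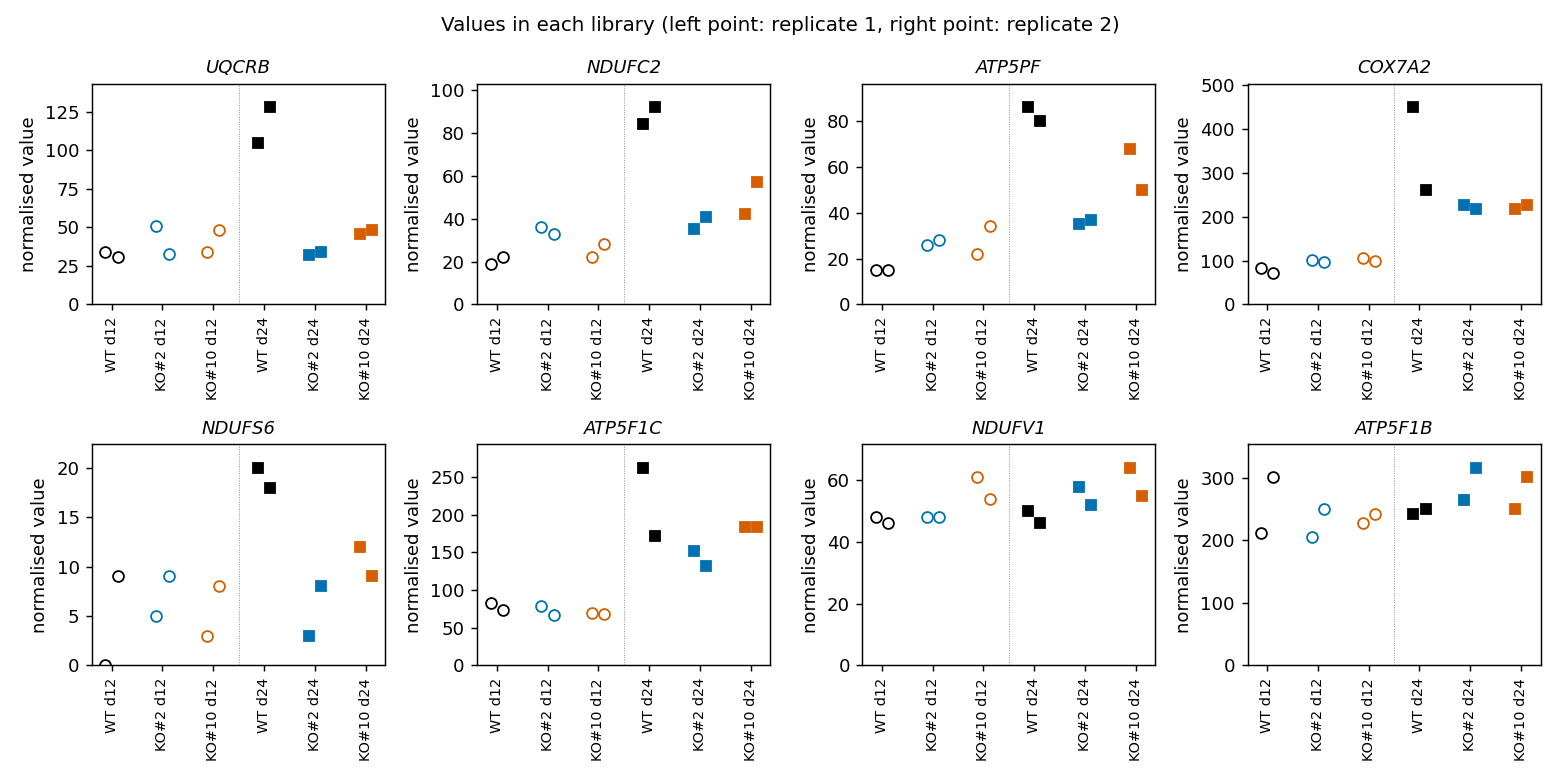
Normalised value of 8 genes in each of the 12 libraries, with the vertical axis starting at 0, circles for day 12, squares for day 24, and black, blue and orange for WT, KO#2 and KO#10. *UQCRB*, *NDUFC2*, *ATP5PF* and *COX7A2* are highest in the WT libraries of day 24, whereas *NDUFV1* and *ATP5F1B* show no such step.

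In KO COs most of the genes also had positive changes, with a lower median. Between day 12 and day 24, 45 of 78 genes rose and 1 fell at an adjusted *p* below 0.05, where 18.8% of all 9952 genes rose and 19.0% fell. With a 2-fold change required, 5 were called higher and 0 lower, where 5.88% of all genes were called higher and 5.59% lower, so that the share of calls at 2-fold was close to the background. The 4 day 24 libraries of each gene all lay above its 4 day 12 libraries for 34 of the 78 genes and below for 0, where 16.0% of all genes lay above and 15.6% below. The median log2 change was 0.48 over the 78 genes and 0.01 over all genes, and by complex it was 0.43, 0.34, 0.48, 0.57 and 0.67 from complex I to complex V.

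The 5 genes called in KO COs were *NDUFA1*, *COX7A2*, *ATP5F1C*, *ATP5F1E* and *ATP5PB*. *COX7A2* had 97 to 105 in the KO libraries of day 12 and 218 to 228 on day 24 (log2 change 1.14, SE 0.15, adjusted *p* = 0.00018), with a narrow spread on both days. *ATP5F1C* had 66 to 78 against 132 to 184 (log2 change 1.19, adjusted *p* = 0.00018), and *ATP5PB*, subunit b of the peripheral stalk, had 110 to 146 against 242 to 469 (log2 change 1.25, adjusted *p* = 0.0012). *ATP5F1E* had 9 to 12 against 19 to 35 (log2 change 1.08, adjusted *p* = 0.0024). *NDUFA1*, an X-linked subunit of complex I, had 5 to 25 against 20 to 37, and these ranges overlapped although the fit gave a change of 1.23 (adjusted *p* = 0.020). Without KO#2 replicate 1 of day 24 or KO#10 replicate 2 of day 12 the count of called genes was 8, and the share of all genes called in these refits is not given here.

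For some genes that rose in WT COs the change in KO COs had an adjusted *p* above 0.4. *UQCRB* had 33 to 51 in the KO libraries of day 12 and 32 to 48 on day 24 (log2 change -0.05, SE 0.18). *COX7C* had 186 to 243 against 237 to 266 (log2 change 0.14), and *ATP5ME*, a small membrane subunit of complex V, had 33 to 50 against 37 to 52 (log2 change 0.08). For *COX7C* and *ATP5ME* the interaction of genotype and day, given below, was not called, so no difference between the genotypes was shown for them. The gene that fell was *NDUFV1-DT*, with 22 to 37 against 12 to 23 (log2 change -0.99, adjusted *p* = 0.010). Core subunits of complex I had a median of 0.26, and *NDUFV1* had 48 to 61 against 52 to 64 (log2 change 0.12). In the other complexes the lowest and highest changes were -0.12 in *SDHA* and 0.63 in *SDHB*, 0.92 in *UQCRQ* above *UQCRB*, 0.13 in *COX6B1* below *COX7A2*, and 0.005 in *ATP5MF* below *ATP5PB*.

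**Figure D3:**
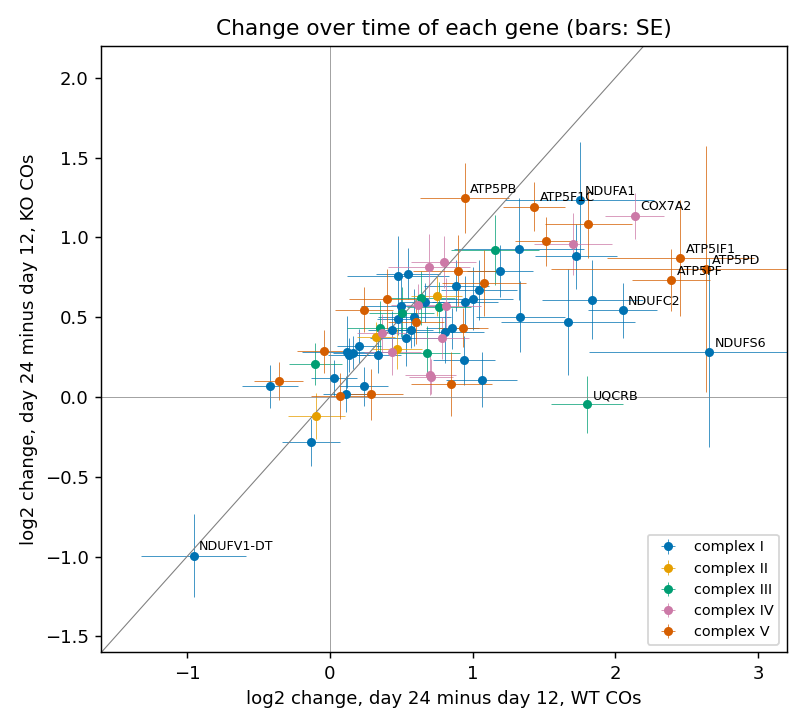
Log2 change from day 12 to day 24 of each of the 78 genes tested, in WT COs on the horizontal and in KO COs on the vertical axis, with bars for the SE, colours for the complexes and a line where both changes are equal. WT and KO changes come from different libraries, and genes such as *UQCRB* (1.80 in WT, -0.05 in KO) and *NDUFC2* (2.05 and 0.54) lie below the line.

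Whether the change over time differed between the genotypes was tested by the interaction of genotype and day over the 12 libraries. Of 78 genes, 0 were called higher and 3 lower, where 0.452% of all 9952 genes were called higher and 0.854% lower, and at an unadjusted *p* below 0.05 there were 1 positive and 16 negative differences, where 11.3% of all genes had a positive and 10.2% a negative one. The median difference was -0.17 over the 78 genes and 0.02 over all genes. *UQCRB* had the clearest difference, with a KO-minus-WT change of -1.85 on the log2 scale (SE 0.31, adjusted *p* = 0.023). *ATP5PF* had -1.66 (SE 0.34, adjusted *p* = 0.037) and *NDUFC2* had -1.51 (SE 0.30, adjusted *p* = 0.037).

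The values behind these differences had a common form. *ATP5PF* rose from 15 in both WT libraries of day 12 to 86 and 80 on day 24, and from 22 to 34 in the KO libraries of day 12 to 35 and 37 in KO#2 and 68 and 50 in KO#10. *NDUFC2* had 22 to 36 in the KO libraries of day 12 and 35 to 57 on day 24 (log2 change 0.54, adjusted *p* = 0.026), so that it rose in both genotypes. *COX7A2* had a difference of -1.003 (adjusted *p* = 0.066, and 0.039 with the replicate number as a block, by which it was called), and those of *ATP5IF1*, *NDUFS6* and *NDUFA7* were -1.59, -2.38 and -1.23 with an adjusted *p* of 0.17, 0.21 and 0.14. The largest positive differences were those of *NDUFA13* (0.48, adjusted *p* = 0.26) and *ATP5F1A* (0.46, adjusted *p* = 0.22). *ATP5PD* had -1.83 with an SE of 1.33, *SDHD* and *SDHC* had -0.17 and 0.05, and *UQCRC1* and *COX7B* had 0.31 and 0.12. For the refits that follow, the share of all genes called is not given here. Leaving out single libraries gave between 0 and 5 calls in place of 3: 0 without WT replicate 1 of day 12; 5 without KO#10 replicate 1 of day 24; and 1 without either replicate of WT on day 24, of KO#2 on day 12, WT replicate 2 of day 12, KO#10 replicate 2 of day 12 or KO#2 replicate 2 of day 24.

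On day 12 no difference between KO and WT COs was called among these genes. *NDUFC1*, *NDUFS6* and *NDUFA6-DT* did not pass the filter on low values on day 12, and the last, at 3 to 9 in all 12 libraries, passed it in no comparison. Of the 76 other genes, 0 were called in either direction, where 0.0900% of all 8885 genes were called, and at an unadjusted *p* below 0.05 there were 3 higher and 1 lower, where 5.95% of all genes were higher and 5.08% lower. The KO and WT libraries did not overlap for 5 genes that were higher and 2 that were lower in KO, where 8.23% of all genes were higher and 8.34% lower in this way. The median log2 difference was -0.02 over the 76 genes and -0.002 over all genes. *ATP5PF*, at 22 to 34 in the KO against 15 in both WT libraries, had a difference of 0.82 (SE 0.18, adjusted *p* = 0.15). *ATP5PB*, at 110 to 146 against 212 and 184, had -0.57 (SE 0.16, adjusted *p* = 0.24), and *COX7A2*, at 97 to 105 against 84 and 71, had 0.38 (adjusted *p* = 0.35). *NDUFB6* of complex I, at 4 to 11 against 15 and 10, had -0.71 (adjusted *p* = 0.52), and *NDUFC2* had 0.50 (adjusted *p* = 0.42). *ATP5PD*, with its steps between shared levels, had 1.18 with an SE of 0.92. In complexes II to IV the differences ranged from -0.39 in *COX7B* to 0.38 in *COX7A2*, with *SDHD* at -0.39, *SDHA* at 0.33, *UQCR11* at -0.30 and *UQCRB* at 0.32.

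On day 24 the mean log2 value of the KO libraries lay below that of the WT libraries for most of these genes, although few differences were called. Of 78 genes tested, 64 had a negative and 14 a positive log2 difference, with a median of -0.27 over the 78 genes and 0.01 over all 9289 genes tested. With a 2-fold change required, 0 were called higher and 2 lower, where 4.22% of all genes were called higher and 3.79% lower, so that the share of calls was not above the background. At an adjusted *p* below 0.05 with no minimum fold, 6 were lower and 0 higher, where 6.48% of all genes were lower and 8.16% higher. At an unadjusted *p* below 0.05, 22 were lower and 3 higher, where 17.6% of all genes were lower and 20.2% higher. All 4 KO libraries lay below both WT libraries for 26 genes and above for 6, where 21.8% of all genes lay below and 22.2% above.

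The 2 called genes were *UQCRB* and *NDUFC2*. *UQCRB* (ENSG00000156467, chr8:96222947-96235546, minus strand) had 105 and 128 in the WT libraries, where the KO#2 libraries had 32 and 34 and the KO#10 libraries 46 and 48 (log2 difference -1.53, SE 0.21, adjusted *p* = 0.018). The KO values were close to those of day 12, at which no difference was called. *NDUFC2* (ENSG00000151366, chr11:78068297-78079862, minus strand) had 84 and 92 in the WT libraries, where the KO#2 libraries had 35 and 41 and the KO#10 libraries 42 and 57 (log2 difference -1.01, SE 0.20, adjusted *p* = 0.027). The share of all genes called in refits without single libraries is not given here, so the counts of those refits need not be particular to these genes. Without WT replicate 1, WT replicate 2, KO#2 replicate 2 or KO#10 replicate 2 of day 24 the count of called genes was 0, and without KO#10 replicate 1 it was 7; the adjusted *p* of *UQCRB* over all alternatives ranged from 0.00099 to 0.23 and that of *NDUFC2* from 0.0063 to 0.25.

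**Figure D4:**
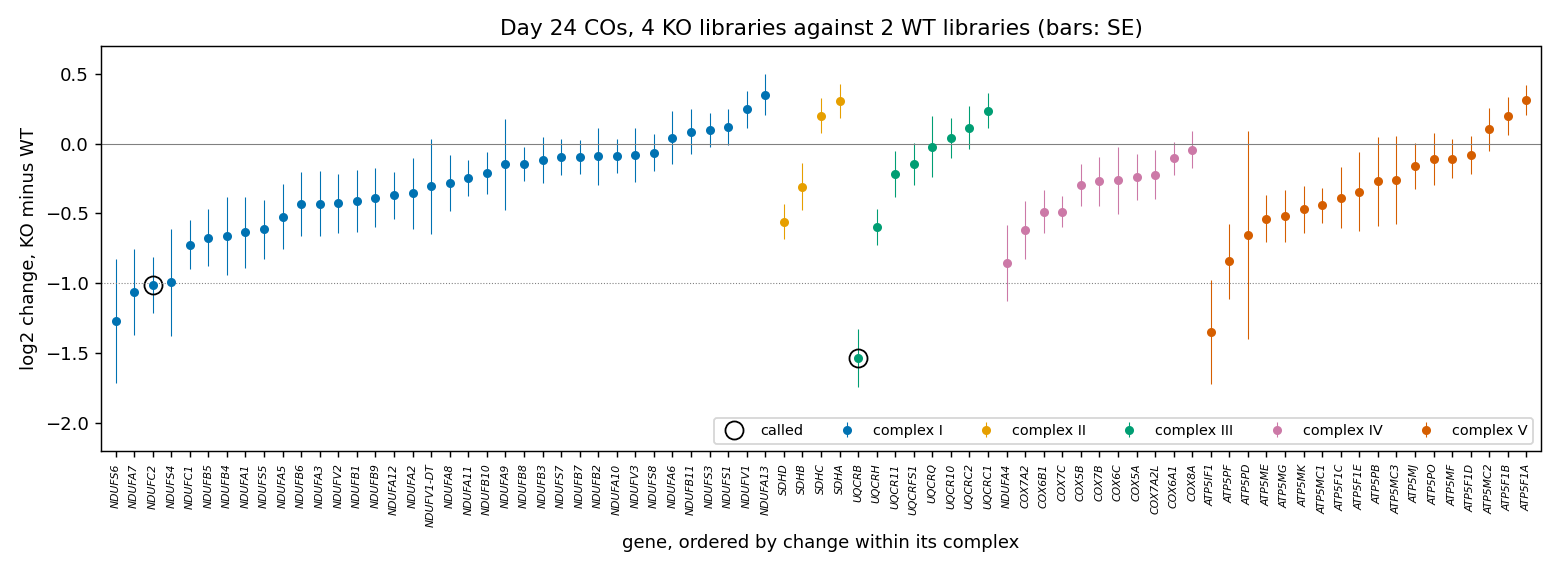
Log2 difference between the 4 KO and the 2 WT libraries of day 24 for 77 of the 78 genes tested, ordered within complexes I to V, with bars for the SE and rings for the 2 called genes. Of the 77 points 63 lie below 0, all 11 complex IV genes among them, and *UQCRB* is the lowest at -1.53.

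The 4 genes that were lower without reaching 2-fold in the main fit came from complexes I to IV. *UQCRH*, the hinge protein of complex III, had 136 and 128 in WT and 82 to 98 in KO (log2 difference -0.59, adjusted *p* = 0.032). *SDHD* had 47 and 48 against 29 to 34 (log2 difference -0.56, adjusted *p* = 0.034). *COX7C* had 338 and 356 against 237 to 266 (log2 difference -0.49, adjusted *p* = 0.037), and *NDUFC1* had 22 and 18 against 10 to 14 (log2 difference -0.72, adjusted *p* = 0.041). In these 4 genes no KO library reached a WT value. With the replicate number as a block in limma, *NDUFC1* no longer had an adjusted *p* below 0.05. *NDUFA4* (adjusted *p* = 0.046) and *ATP5ME* of complex V (adjusted *p* = 0.047) then had one, both lower in KO.

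By complex, the median difference was -0.28 in complex I, -0.05 in complex II, -0.08 in complex III, -0.27 in complex IV and -0.31 in complex V. All 11 complex IV genes had negative differences, from -0.04 in *COX8A* to -0.85 in *NDUFA4* (237 and 126 in WT, 76 to 118 in KO, adjusted *p* = 0.072). In complex I the core subunits had a median of -0.06 and the other 29 subunits one of -0.37. *NDUFS6* had 20 and 18 in the WT libraries, whereas KO#2 had 3 and 8 and KO#10 had 12 and 9 (log2 difference -1.27, adjusted *p* = 0.086). Without its WT values *NDUFS6* would not have passed the filter of 10 in 2 libraries, so that difference is no measure of a fold. *NDUFA7* had 46 and 48 in WT, whereas KO#2 had 14 and 19 and KO#10 had 31 and 28 (log2 difference -1.06, adjusted *p* = 0.057). In complex V the 5 genes of the F1 part had a median of -0.08 and the other 13 one of -0.44, with *ATP5IF1* lowest: the WT libraries had 48 and 53, KO#2 had 10 and 19, and KO#10 had 28 and 25 (log2 difference -1.35, SE 0.37, adjusted *p* = 0.052).

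A few genes pointed the other way on day 24. *SDHA* had 36 and 40 in WT and 45 to 51 in KO (log2 difference 0.31, adjusted *p* = 0.12). *ATP5F1A* had 368 and 354 against 424 to 470 (log2 difference 0.31, adjusted *p* = 0.082), and *NDUFA13* had 149 and 116 against 162 to 186 (log2 difference 0.35, adjusted *p* = 0.12). *UQCRC1* and *NDUFV1*, with 100 and 91 against 103 to 120 and 50 and 46 against 52 to 64, had differences of 0.24 and 0.25. For each of these 5 genes the KO libraries lay above both WT libraries, and none of the differences was called.

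The 2 KO clones were then compared with each other. Of the 78 genes tested on day 24 limma called 0, with 1 higher and 8 lower in KO#2 at an unadjusted *p* below 0.05, and it called 0 of all 9289 genes, with 224 higher and 255 lower. Of the 78 differences 65 were negative and 13 positive, against 4845 and 4370 over all 9289 genes. Both KO#2 libraries lay below both KO#10 libraries for 28 of the 78 genes and above for 3, against 1380 and 1261 of all genes. On day 12 limma called 0 of 76, with 1 higher and 0 lower at an unadjusted *p* below 0.05, against 55 and 60 of all 8885 genes. The median KO#2-minus-KO#10 difference over the genes was -0.16 on day 24 and -0.02 on day 12, against -0.012 and 0 over all genes. The 8 genes lower in KO#2 on day 24 at the unadjusted threshold were *NDUFA1*, *NDUFA7*, *NDUFB4*, *NDUFB9*, *NDUFS5*, *UQCRB*, *ATP5IF1* and *ATP5PF*, with log2 differences of -0.47 to -0.89 and an adjusted *p* of 0.83 each. *ATP5PF*, for example, had 35 and 37 in KO#2 and 68 and 50 in KO#10. The gene higher in KO#2 at that threshold was *NDUFA5*, with 64 and 57 against 36 and 44. Outside these 9 genes, the lowest differences of a complex on day 24 were those of *NDUFS6* (-0.93), *SDHB* (-0.19), *COX6C* (-0.32) and *ATP5PD* (-1.31, SE 0.78), and the highest were those of *SDHA*, *UQCR11*, *COX6A1* and *ATP5F1A*, at 0.04 to 0.08. On day 12 the differences of complex I lay between -0.76 (*NDUFA3*) and 0.46 (*NDUFC2*). In the other complexes the lowest were those of *SDHB*, *UQCRFS1*, *COX7B* and *ATP5MC1*, at -0.45 to -0.06, and the highest those of *SDHA*, *UQCRQ*, *COX6C* and *ATP5PD*, at 0.06 to 0.32.

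Several measures moved together with these differences, and their part in them was not tested. In bulk samples, fewer cells of a type and less RNA per cell cannot be told apart. The day 24 WT libraries, in which the genes were highest, were also those with the summed hepatic and yolk sac values of 6571 and 6713, the highest epithelial values and, with KO#10 replicate 1, the highest mesenchyme values. KO#10 replicate 1 of day 24, with the highest such value among the KO libraries (1182), had the highest median level of the 79 genes among them, at 0.33 on the centred log2 scale, against 0.57 and 0.35 in the WT libraries, 0.12 and 0.09 in KO#2 and 0.19 in KO#10 replicate 2. Its summed pluripotency value was 44, within the 28 to 49 of the KO libraries of day 24, and its neural progenitor value was 934, within their 896 to 1009. Its neuron value of 372 was the lowest of these KO libraries. Neuron and neural progenitor values of day 24 were lower in the WT than in the KO libraries. *RBP4* was at 0 in both day 12 WT libraries and *SERPINA1* in all day 12 KO libraries, and no marker of any list was at 0 throughout a day 24 group.

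Transcript length was one such measure. The median transcript length of the 79 genes was 702 nucleotides in GENCODE 29, against 1748.5 over all genes, and the change over time in WT COs also varied with length among other genes, with medians of 0.47 up to 500 nucleotides and -0.20 over 2500. Among genes with transcripts of up to 1000 nucleotides, the median change in WT was 0.76 over the 62 OXPHOS genes and 0.12 over 2701 others, of which 30.6% and 9.48% were called higher and 0% and 6.44% lower. On day 24 the KO-minus-WT medians in this length range were -0.29 and -0.05. After the trend of each library with length and GC content was removed, an alternative chosen after seeing the data, 16 genes were called higher in WT COs over time with a median of 0.57, 5 in KO COs with a median of 0.39, 1 was called lower in KO than in WT on day 24, and the interaction gave the same count of 3.

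**Figure D5:**
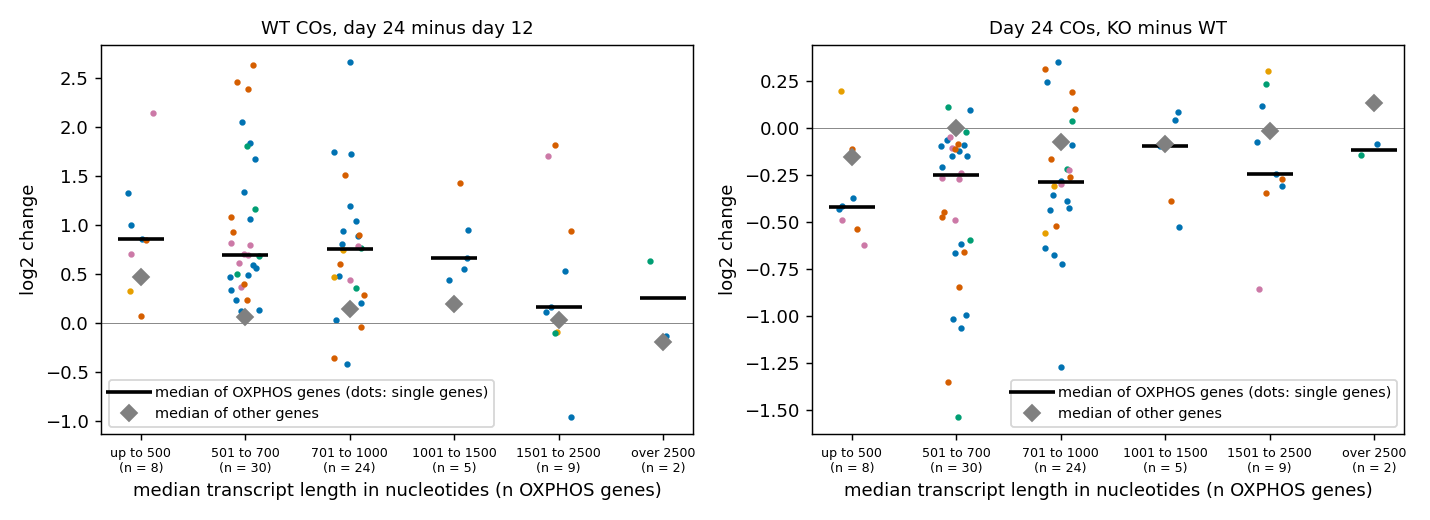
Log2 change by median transcript length, over time in WT COs on the left and between KO and WT COs of day 24 on the right, with dots for single OXPHOS genes coloured by complex, bars for their median and diamonds for the median of all other genes. In the class of 501 to 700 nucleotides the medians on the left are 0.70 for 30 OXPHOS genes and 0.07 for the 964 others, and the classes over 1000 nucleotides hold few OXPHOS genes.

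Related gene lists were compared with the subunits. Over time in WT COs, 7.17% of all genes were called higher and 7.88% lower, and at an unadjusted *p* below 0.05 it was 20.7% and 21.5%. Of 76 genes of the mitochondrial ribosome, which translates the subunits encoded in mitochondrial DNA, 9 were called higher and 0 lower. At an unadjusted *p* below 0.05, 40 of them were higher and 1 lower, and their median log2 change was 0.55. The highest was *MRPL33* at 2.13 (adjusted *p* = 0.0069). Assembly factors were called higher in 2 of 12 cases for complex I (*NDUFAF3* at 1.50 and *ECSIT* at 1.01), 1 of 3 for complex II (*SDHAF1* at 1.18) and 2 of 20 for complex IV (*PET100* at 1.13 and *COA6* at 1.04), where *COX19* was called lower at -1.40. None of the 4 factors of complex III or the 3 of complex V was called by limma, with 1 lower and 1 higher at an unadjusted *p* below 0.05. The 4 subunits and carriers outside the symbol pattern had a median of 0.28 and none was called, with 1 higher at an unadjusted *p* below 0.05. The subunits encoded in mitochondrial DNA were not analysed here.

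Other lists of energy metabolism had lower medians in WT COs over time. Of 13 citric acid cycle genes, 1 was called higher (*FH*, fumarase, at 1.19), where 7.17% of all genes were called higher, and the median was 0.47. Of 18 glycolysis genes, 3 were called higher (*ALDOC* at 2.07, *PGK1* at 1.39 and *PFKP* at 1.30), against the same 7.17%, and the median was 0.18. Of 9 genes for mitochondrial transcription and biogenesis, which include the regulators of the motifs above, limma called 0, also at an unadjusted *p* below 0.05, and the median was -0.004.

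In KO COs over time, the medians of these lists were 0.29 for the mitochondrial ribosome, 0.35 for the citric acid cycle and -0.20 for glycolysis. Of the mitochondrial ribosome, 2 of 76 genes were called higher (*MRPL3* at 1.25 and *MRPS35* at 1.00). Of all genes, 5.88% were called higher and 5.59% lower in this comparison. *SLC2A1*, the glucose transporter, was called lower in KO COs over time at -1.39 (adjusted *p* = 0.00055), and *ALDOC* and *LDHB* were called higher at 1.22 and 1.11. *NDUFAF5* was the 1 assembly factor of complex I called higher, at 1.20. On day 24 the mitochondrial ribosome had 72 of 76 KO-minus-WT differences below 0, with a median of -0.33 and 0 called at 2-fold, but 27 lower and 0 higher at an unadjusted *p* below 0.05, against the 17.6% and 20.2% of all genes. Of glycolysis genes, *PGK1* and *PFKP* were called lower in KO on day 24 at -1.55 and -1.67 (adjusted *p* = 0.042 and 0.032), where 3.79% of all genes were called lower. The median of 18 was -0.30. The OXPHOS median of -0.27 thus lay between that of the citric acid cycle, at -0.20, and that of glycolysis.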

How the data were processed

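Total RNA of pooled COs was depleted of ribosomal RNA and sequenced strand-specifically. The submitters' processing notes name bcl2fastq, Bowtie2 and RSEM and the build mm10, whereas the identifiers are human, and all 79 genes overlapped their GENCODE 29 position. The values the authors deposited are whole-number normalised scores with 1 value per gene and library. Their normalisation and depth are not given in the sources used here, and a score is not a read count. The libraries share the same median and highest value, so a change is a shift on that common scale and not a measured change in RNA amount.

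Genes with at least 10 in 2 libraries were tested with limma (version 3.58.1, R 4.3.3) on log2(value + 1), using trended empirical Bayes variances and Benjamini-Hochberg adjustment over all genes. KO and WT were compared within each day (2 against 4 libraries), and time and interaction in 1 fit of 12 libraries. These main fits had no term for the clone. A call required an adjusted *p* below 0.05 and at least a 2-fold change. The precision of these groups is limited by their 2 to 4 libraries, and the fits were tested on simulated data. Deviations of same-numbered libraries correlated between all lines on day 12 (r = 0.38 to 0.56) and between KO#2 and the other lines on day 24 (r = 0.22 with WT and 0.33 with KO#10), but not between WT and KO#10 (r = -0.09). With the replicate number as a block, the calls on day 12 rose from 2 higher and 6 lower to 36 and 35 over all genes, with 0 OXPHOS genes called, and *ATP5PF* had an adjusted *p* of 0.049 at a log2 difference of 0.82.

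The genes and lists were chosen with earlier results of these data known. Named were all called genes, the highest and lowest of each complex and comparison, core subunits, related copies and divergent transcripts, and 1 gene is counted but its own values are not reported here. Several of these genes have near-identical pseudogenes, and how shared reads were assigned is not given in the sources used here. Alternatives varied the filter, pseudocount, threshold, scaling, variance trend, block, samples in the fit and single libraries.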

Additional observations from a re-analysis of the deposited data

Results flagged for a closer look

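Of these genes, 3 changed differently over time in the 2 genotypes by the interaction test. The KO-minus-WT difference of the log2 change was -1.85 for *UQCRB*, -1.66 for *ATP5PF* and -1.51 for *NDUFC2*. In each of them the WT libraries of day 24 were the highest of the 12.

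Among the 4 KO libraries of a day, single values of *NDUFA8*, an accessory subunit of complex I, stood apart from the other 3 relative to their spread. On day 12 KO#2 replicate 1 had 17 against 20 in each of the other KO libraries, a small gap beside 3 equal values, and on day 24 KO#10 replicate 1 had 46 against 30 to 31. Chance flags about 1 in 20 such groups, and 46 groups were checked.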

How the results depend on the processing

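The median change of the OXPHOS genes kept its sign under every alternative in the 4 comparisons below: it was 0.57 to 0.80 over time in WT, 0.39 to 0.52 over time in KO, -0.37 to -0.17 for KO against WT on day 24, and -0.30 to -0.09 for the interaction. Between KO and WT on day 12 it was -0.05 to 0.01, with 0 calls in each alternative. The counts of calls moved more. For refits without single libraries the share of all genes called is not given here, so a moved count need not be particular to the OXPHOS genes. With no minimum fold, 44 genes rose in WT and 45 rose and 1 fell in KO over time, and 6 were lower in KO on day 24. With an unadjusted *p*, 5 were lower on day 24 and 7 in the interaction. With the clones as separate groups or with all 12 libraries in 1 fit, 4 were lower in KO on day 24. With WT libraries only, 14 rose in WT, and with a pseudocount of 5, 3 rose in KO. Rescaling by the median of ratios gave 1 gene lower over time in KO, and the length and GC correction gave 1 lower over time in KO and 1 lower in KO on day 24. When single libraries were left out, the genes lower in KO on day 24 numbered 0 to 7, those lower in the interaction 0 to 5, those higher over time in KO 4 to 8 and lower 0 to 1, and those higher in WT 15 to 21 and lower 0 to 1. With the replicate block, 23 genes rose in WT, with *ATP5PD* added, and 5 in KO over time, 2 were lower on day 24 and 4 in the interaction, with *COX7A2* added, and no other 2-fold call changed. With no minimum fold the block moved further genes of WT over time below an adjusted *p* of 0.05 in limma. *NDUFA13* (0.047), *ATP5F1A* (0.0497) and *NDUFV1-DT* (0.045) fell, and *SDHD* (0.017), *UQCRFS1* (0.020), *NDUFS7* (0.027) and *COX5B* (0.032) were among those that rose. In KO against WT on day 24 the block moved *NDUFA4* (0.046) and *ATP5ME* (0.047) below 0.05, and *NDUFC1* was no longer below it. The cause of these shifts was not tested. Depth is unknown, and genes under the filter were not tested. Changes that start from values under 10, such as those of *NDUFC1* and *NDUFS6*, are no measure of a fold.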
